A study of Mus musculus with 7 samples.

Results

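The study behind these libraries collected fibroblasts from the developing mouse heart. The deposited gene table also held transcripts known from a different lineage, the macrophages. Described here are 34 genes known from macrophages and other myeloid cells. They were listed by symbol and all 34 were found among the 54735 symbols of the table. They were measured in 7 bulk RNA-seq libraries. All libraries were made from GFP-positive cardiac cells collected by fluorescence-activated sorting from pooled male and female animals that carried the R26eGFP reporter. In this reporter system a MerCreMer recombinase, which tamoxifen activates, switches on GFP and leaves it on in the progeny of the marked cell. The recombinase was driven from the periostin gene (PostnMCM;R26eGFP) in 2 libraries from animals aged 7 days, called Postn P7. It was driven from the gene of the transcription factor Tcf21 (Tcf21MCM;R26eGFP) in 2 libraries at 7 days, called Tcf21 P7, and in 3 libraries at 30 days, called Tcf21 P30. The age at which tamoxifen was given is not stated in the sources used here. The labels do not say whether libraries came from separate animals, so p-values measure the spread between libraries, which may be technical. The labels name GFP as the gate and no marker of blood cells.

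Macrophages settle in the heart before birth and are later joined by cells derived from blood monocytes. They depend on the receptor encoded by Csf1r, whose ligand CSF1 is made by fibroblasts among other cells, and on the transcription factor PU.1, encoded by Spi1. Resident macrophages of the heart are known for taking up dead cells and debris, for the scavenger receptors they carry and for making C1q, the protein that starts the classical complement pathway.

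Sequencing depth was alike, with 15207835 to 18519528 counts per library, and the members together took 11912 to 39456 of them. Levels below are in CPM, read counts brought to the same total by TMM scaling (trimmed means of gene-wise ratios), and differences are log2 fold changes with their standard errors (SE). Tests were edgeR quasi-likelihood F-tests fitted over the 17636 genes that passed the filter on low counts, which included all 34 members. Genes with a Benjamini-Hochberg adjusted p under 0.05 over all of these were called. Fibroblast markers were abundant, with Pdgfra at 660 to 1306 CPM, Tcf21 at 271 to 428 CPM and Col1a1 at 4536 to 10707 CPM over the 7 libraries. Summed markers of some other cell types differed between libraries of 1 group. The 12 endothelial markers summed to 4183 CPM in Tcf21 P30 replicate 1 and 1778 CPM in Postn P7 replicate 1, against 1077 to 1354 CPM in the other 5. The 8 erythroid markers ranged from 69.2 CPM in Postn P7 replicate 2 to 621 CPM in Tcf21 P30 replicate 1, and were 507 and 483 CPM in Tcf21 P7. The 8 pericyte markers were highest in Postn P7, at 2213 and 1603 CPM, against 1114 and 1064 CPM with the Tcf21 driver at 7 days and 832 to 1516 CPM at 30 days. The part of these cell types in the results below was not tested.

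Macrophage transcripts were most abundant in Tcf21 P7. The 34 members summed to 2242 and 2231 CPM in the Tcf21 P7 libraries. The sum was 750 and 932 CPM with the Postn driver, and 1107, 755 and 778 CPM at 30 days. Compared by means of the log2 sums, Tcf21 P7 was 2.68 times Postn P7 and 2.58 times Tcf21 P30. No library of the other groups reached either Tcf21 P7 library. Postn P7 and Tcf21 P30 overlapped and differed by -0.05 in mean log2 level, within the pooled SD of 0.244 between libraries of a group. In bulk RNA, fewer macrophages and less of each transcript per macrophage cannot be told apart. Which cells the transcripts came from was not tested. The sums are a description, with no test.

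**Figure D1:**
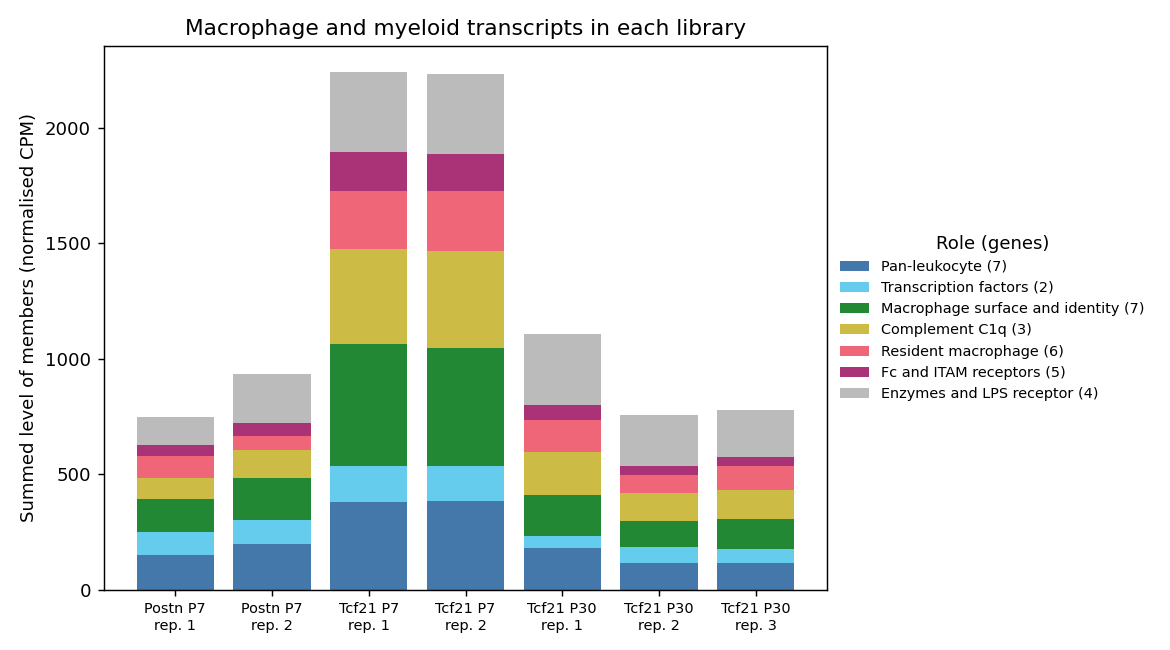
Summed normalised CPM of the 34 members in each of the 7 libraries (bars), divided by role, with the number of genes per role in the legend. The Tcf21 P7 bars stand at 2242 and 2231 CPM, and the other 5 lie between 750 and 1107 CPM.

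Between the drivers at 7 days, 24 members were lower in Postn P7 than in Tcf21 P7, none was higher and 10 were not called. Of all genes tested, 5.49% were called lower, 6.52% higher and 12% in either direction. The median log2 fold change was -1.59 over the members and 0.00 over all genes tested. Between the ages of Tcf21-marked cells, 28 members were lower at 30 days than at 7 days, none was higher and 6 were not called, where 15% of all genes were called lower, 16.7% higher and 31.8% in either direction. The median was -1.55 over the members and 0.03 over all genes. Both comparisons use the same Tcf21 P7 libraries, so they are not independent. The libraries of the groups did not overlap, with Tcf21 P7 the higher, for 32 members between drivers (32.5% of all genes) and for 32 between ages (29.9% of all genes). Several members were listed because earlier work on these libraries had already named them, and the counts are not independent evidence of a direction.

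The Tcf21 P7 libraries were more alike than the replicates of the other groups, and the labels do not say whether they came from separate preparations. Summed into 1 library, they left 9 of the 24 members called lower in Postn P7, and without either one of them 8 members were called. With 1 library in Tcf21 P7, its spread was taken to be like that of the other groups. The summed fit moved the log2 fold changes of the 24 by at most 0.0046, and the lost calls had an edgeR adjusted p of 0.062 to 0.19. The 9 were Laptm5, Cyth4, Spi1, Csf1r, Adgre1, C1qa, Folr2, Fcgr3 and Alox5. Between ages, 23 of the 28 remained with the libraries summed, the others being Folr2, Cbr2, Pf4, Trem2 and Ctss.

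**Figure D2:**
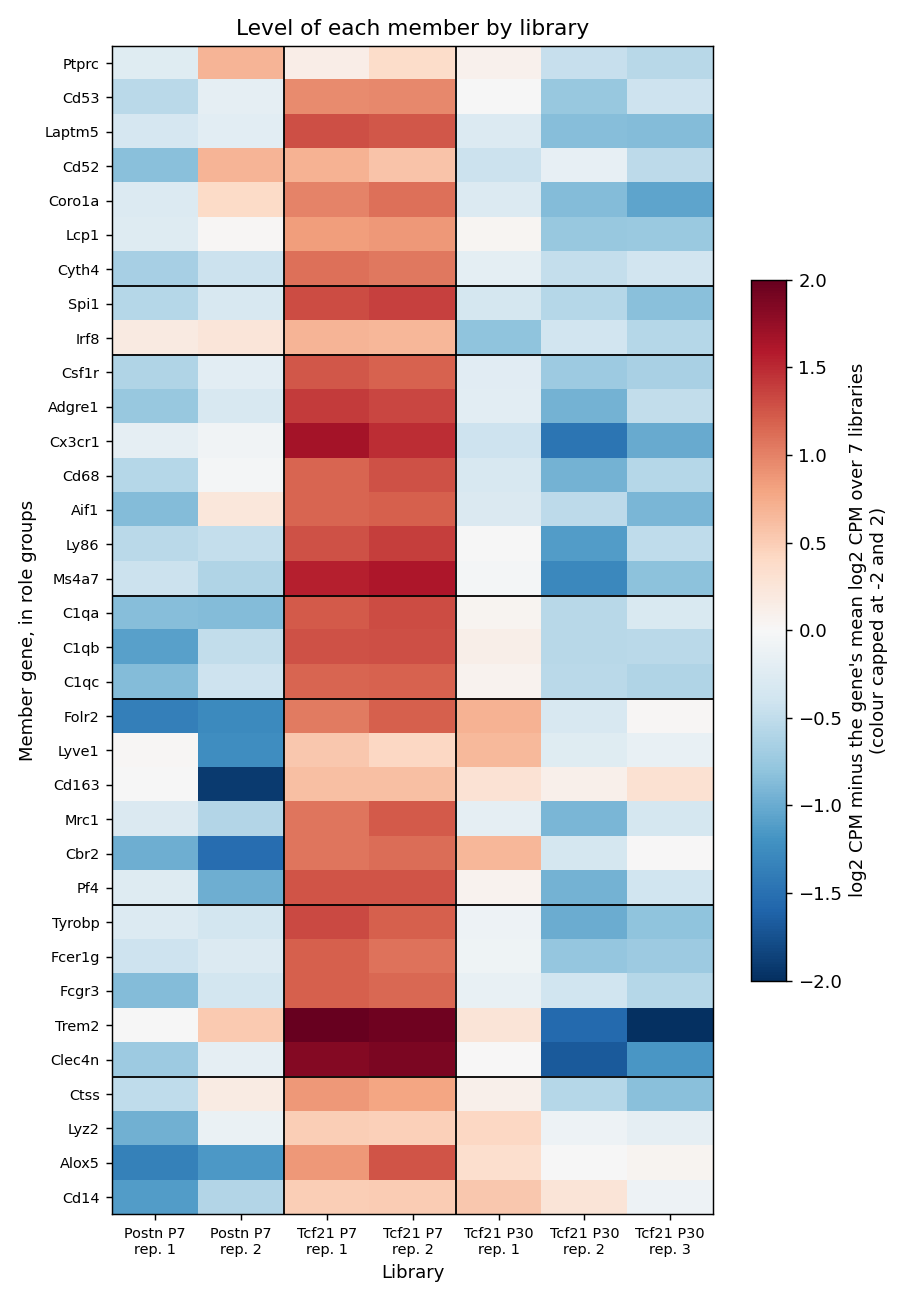
Level of each member (rows, in role groups) in each library (columns), as log2 CPM minus the gene's own mean over the 7 libraries, with colour capped at -2 and 2. For 30 of 34 members both Tcf21 P7 libraries were above each of the other 5; the exceptions were Ptprc, Cd52, Lyve1 and Cd14.

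Both Tcf21 P7 libraries lay above the other 5 libraries for 30 of the 34 members, a pattern seen in 16.8% of all genes tested. The members nevertheless differed in level and in size of change. Per kilobase of exon, the mean Tcf21 P7 level was highest for Lyz2, at 192 CPM per kb, then C1qb at 151, Pf4 at 111 and C1qa at 99.7 CPM per kb, and it was lowest for Ptprc at 0.746 CPM per kb. Changes in Postn P7 against Tcf21 P7 ran from -2.43 (Folr2) to 0.04 (Ptprc), and in Tcf21 P30 against Tcf21 P7 from -2.96 (Trem2) to -0.25 (Cd14).

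The members grouped as macrophage surface and identity genes were lower in both comparisons in 7 of 7 cases. These were Csf1r, Adgre1, Cx3cr1, Cd68, Aif1, Ly86 and Ms4a7. Csf1r, the CSF1 receptor (chr18:61100598-61132149, GRCm38), stood at 268 and 257 CPM in both libraries of Tcf21 P7, 74.4 and 98.3 CPM with the Postn driver, and 96.8, 68.4 and 72.2 CPM at 30 days. Its log2 fold change was -1.60 ± 0.19 (SE) between drivers (edgeR adjusted p = 0.0056) and -1.73 ± 0.17 between ages (edgeR adjusted p = 0.00035). Both Tcf21 P7 values were above all others, and those of Postn P7 and Tcf21 P30 overlapped. Csf1r overlaps Hmgxb3 on the other strand, which averaged 57.5 CPM, and whether counting used strand is not given in the sources used here.

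Adgre1, which encodes the macrophage surface protein F4/80, was at 68.6 and 66.1 CPM for Tcf21 at 7 days, 22.5, 13.6 and 18.5 CPM for Tcf21 at 30 days, and 15.3 and 20.8 CPM for Postn. It changed by -1.90 ± 0.24 between drivers (edgeR adjusted p = 0.006) and by -1.89 ± 0.21 between ages (edgeR adjusted p = 0.00056). As for Csf1r, the lower groups overlapped and Tcf21 P7 stood apart. Cx3cr1, the receptor for fractalkine, was at 108 and 94.5 CPM in the Tcf21 P7 libraries, 30.1 and 32.5 CPM in those of Postn P7, and 25.6, 12.4 and 16.9 CPM in those of Tcf21 P30. The change was -1.70 ± 0.30 between drivers (edgeR adjusted p = 0.019) and -2.47 ± 0.27 between ages (edgeR adjusted p = 0.0009). Its Postn P7 libraries lay above every Tcf21 P30 library, although that difference was not called.

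The genes of the C1q chains, C1qa, C1qb and C1qc, lie next to each other on chromosome 4 and were called lower in both comparisons. C1qa (chr4:136895917-136898803) was at 101 and 106 CPM in both libraries of Tcf21 P7, 23.8 and 23.7 CPM with the Postn driver, and 44.5, 29.3 and 34.7 CPM at 30 days. It changed by -2.13 ± 0.18 between drivers (edgeR adjusted p = 0.0017) and by -1.52 ± 0.16 between ages (edgeR adjusted p = 0.00037). The 3 groups did not overlap for C1qa, with Tcf21 P30 in between.

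C1qb (chr4:136880129-136886187) was at 163 and 166 CPM for Tcf21 at 7 days, 73.3, 46.3 and 46.3 CPM for Tcf21 at 30 days, and 31.8 and 48.0 CPM for Postn. The log2 fold change was -2.04 ± 0.29 between drivers (edgeR adjusted p = 0.012) and -1.57 ± 0.25 between ages (edgeR adjusted p = 0.0045). C1qc (chr4:136889804-136893065) was at 147 and 148 CPM in the Tcf21 P7 libraries, 35.6 and 49.2 CPM in those of Postn P7, and 68.7, 44.8 and 42.8 CPM in those of Tcf21 P30. Its changes were -1.80 ± 0.26 (edgeR adjusted p = 0.011) and -1.50 ± 0.23 (edgeR adjusted p = 0.0031). For both of these chains the ranges of Postn P7 and Tcf21 P30 overlapped.

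Of the 6 members known from resident, scavenging macrophages, 4 were lower in both comparisons (Mrc1, Pf4, Folr2 and Cbr2), and Lyve1 and Cd163 were not called in either. Mrc1, the mannose receptor, was at 85.0 and 94.5 CPM in both libraries of Tcf21 P7, 33.2 and 26.9 CPM with the Postn driver, and 35.7, 21.4 and 31.7 CPM at 30 days. It changed by -1.58 ± 0.23 between drivers (edgeR adjusted p = 0.01) and by -1.60 ± 0.20 between ages (edgeR adjusted p = 0.0012), with the lower groups overlapping.

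Pf4, a chemokine that platelets and their precursors also carry, was at 80.0 and 80.2 CPM for Tcf21 at 7 days, 34.9, 17.2 and 25.4 CPM for Tcf21 at 30 days, and 27.8 and 16.9 CPM for Postn. The change was -1.84 ± 0.36 between drivers (edgeR adjusted p = 0.028) and -1.63 ± 0.31 between ages (edgeR adjusted p = 0.01). Lyve1, a hyaluronan receptor of resident macrophages and of lymphatic endothelium, was at 16.4 and 15.2 CPM in the Tcf21 P7 libraries, 11.5 and 4.80 CPM in those of Postn P7, and 17.9, 9.58 and 10.2 CPM in those of Tcf21 P30. Its differences of -0.95 ± 0.45 (edgeR adjusted p = 0.21) and -0.33 ± 0.40 (edgeR adjusted p = 0.56) were not called. Lyve1 was high in the same libraries of Postn P7 and Tcf21 P30 as the 5 lymphatic endothelial markers, which summed to 35.7 and 20.6 CPM with the Postn driver, 26.1 and 23.8 CPM in Tcf21 P7, and 65.5, 8.94 and 15.4 CPM at 30 days. Postn P7 replicate 1 and Tcf21 P30 replicate 1 were also the highest of their groups for Mrc1, Pf4 and Cbr2, but not both for Folr2 or Cd163. Ccl21a was at 0 in all 7, and the part of lymphatic cells in the Lyve1 level was not tested. Cd163, the scavenger receptor for haemoglobin, fell outside the call with 8.88 and 2.37 CPM in Postn P7, 13.5 CPM in each Tcf21 P7 library and 10.9, 9.58 and 11.05 CPM in Tcf21 P30.

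Folr2, Alox5, Cbr2 and Clec4n had the largest differences between drivers of the 34 members. Folr2 encodes a folate receptor, Alox5 the lipoxygenase that starts leukotriene synthesis, Cbr2 a carbonyl reductase and Clec4n the fungal receptor Dectin-2. The 250 bases before the gene start are shown for those with a RefSeq promoter (GRCm38.p6), so that they can be read against the PU.1 core GAGGAA, searched on both strands and set in capitals. They cover chr7:101857191-101857440 for Folr2, chr6:116461179-116461428 for Alox5 and chr11:120732022-120732271 for Cbr2, each on the minus strand and written 5′ to 3′ toward the gene. Starts are those of RefSeq, and the Cbr2 start lies 93 bases inside the GENCODE gene, so that window overlaps the gene coordinates given below.
Folr2: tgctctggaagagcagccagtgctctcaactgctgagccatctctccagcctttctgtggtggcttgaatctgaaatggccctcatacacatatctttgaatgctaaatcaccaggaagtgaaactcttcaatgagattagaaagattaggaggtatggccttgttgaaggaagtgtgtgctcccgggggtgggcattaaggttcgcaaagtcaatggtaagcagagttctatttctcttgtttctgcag
Alox5: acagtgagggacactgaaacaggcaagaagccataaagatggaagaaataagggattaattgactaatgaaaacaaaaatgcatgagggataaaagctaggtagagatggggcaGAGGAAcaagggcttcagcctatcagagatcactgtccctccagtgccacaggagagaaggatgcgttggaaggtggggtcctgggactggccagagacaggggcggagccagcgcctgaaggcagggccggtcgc
Cbr2: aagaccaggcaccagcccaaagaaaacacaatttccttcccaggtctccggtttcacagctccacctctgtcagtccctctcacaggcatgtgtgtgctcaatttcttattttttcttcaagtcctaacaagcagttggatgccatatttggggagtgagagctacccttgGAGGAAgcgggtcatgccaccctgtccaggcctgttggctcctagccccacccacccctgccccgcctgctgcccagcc
The core lay at -136 from the start in Alox5 and at -79 in Cbr2, and was not found in the Folr2 window, whose start is 1 of 2 in the table. Of the 25 members with a promoter there, 14 (56%) held the core, against 23.1% of 27025 genes with 1 promoter each. The 2 shares were built differently, and their difference was not tested. For members the start nearest the GENCODE start was used, up to 5532 bases away (Fcgr3), and for all genes the first start listed. The 27025 genes were also not limited to those that passed the filter on low counts. A match is a description of these letters, not a site of binding.

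Folr2 (chr7:101839988-101857194) was at 18.1 and 20.1 CPM in both libraries of Tcf21 P7, 3.44 and 3.65 CPM with the Postn driver, and 14.3, 7.10 and 9.01 CPM at 30 days. It changed by -2.43 ± 0.32 between drivers (edgeR adjusted p = 0.0065) and by -0.92 ± 0.27 between ages (edgeR adjusted p = 0.033). The 3 groups did not overlap. The antisense gene Gm10602 overlaps Folr2 and averaged 18.4 CPM, so reads of this pair cannot be told apart without strand.

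Alox5 (chr6:116410077-116461178) was at 13.8 and 17.9 CPM for Tcf21 at 7 days, 9.47, 7.48 and 7.80 CPM for Tcf21 at 30 days, and 2.96 and 3.39 CPM for Postn. Its changes were -2.32 ± 0.23 between drivers (edgeR adjusted p = 0.0028) and -0.94 ± 0.19 between ages (edgeR adjusted p = 0.0077), again with no overlap among the 3 groups. Cbr2 (chr11:120729489-120732114) was at 34.2 and 35.0 CPM in the Tcf21 P7 libraries, 8.25 and 5.64 CPM in those of Postn P7, and 25.7, 12.7 and 16.2 CPM in those of Tcf21 P30. It changed by -2.31 ± 0.34 (edgeR adjusted p = 0.011) and by -0.93 ± 0.29 (edgeR adjusted p = 0.046). Clec4n had another order, with 18.1 and 18.8 CPM in both libraries of Tcf21 P7, 3.07 and 4.48 CPM with the Postn driver, and 5.11, 1.59 and 2.25 CPM at 30 days. Its changes were -2.29 ± 0.49 (edgeR adjusted p = 0.029) and -2.63 ± 0.43 (edgeR adjusted p = 0.0041), and its lower groups overlapped.

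**Figure D3:**
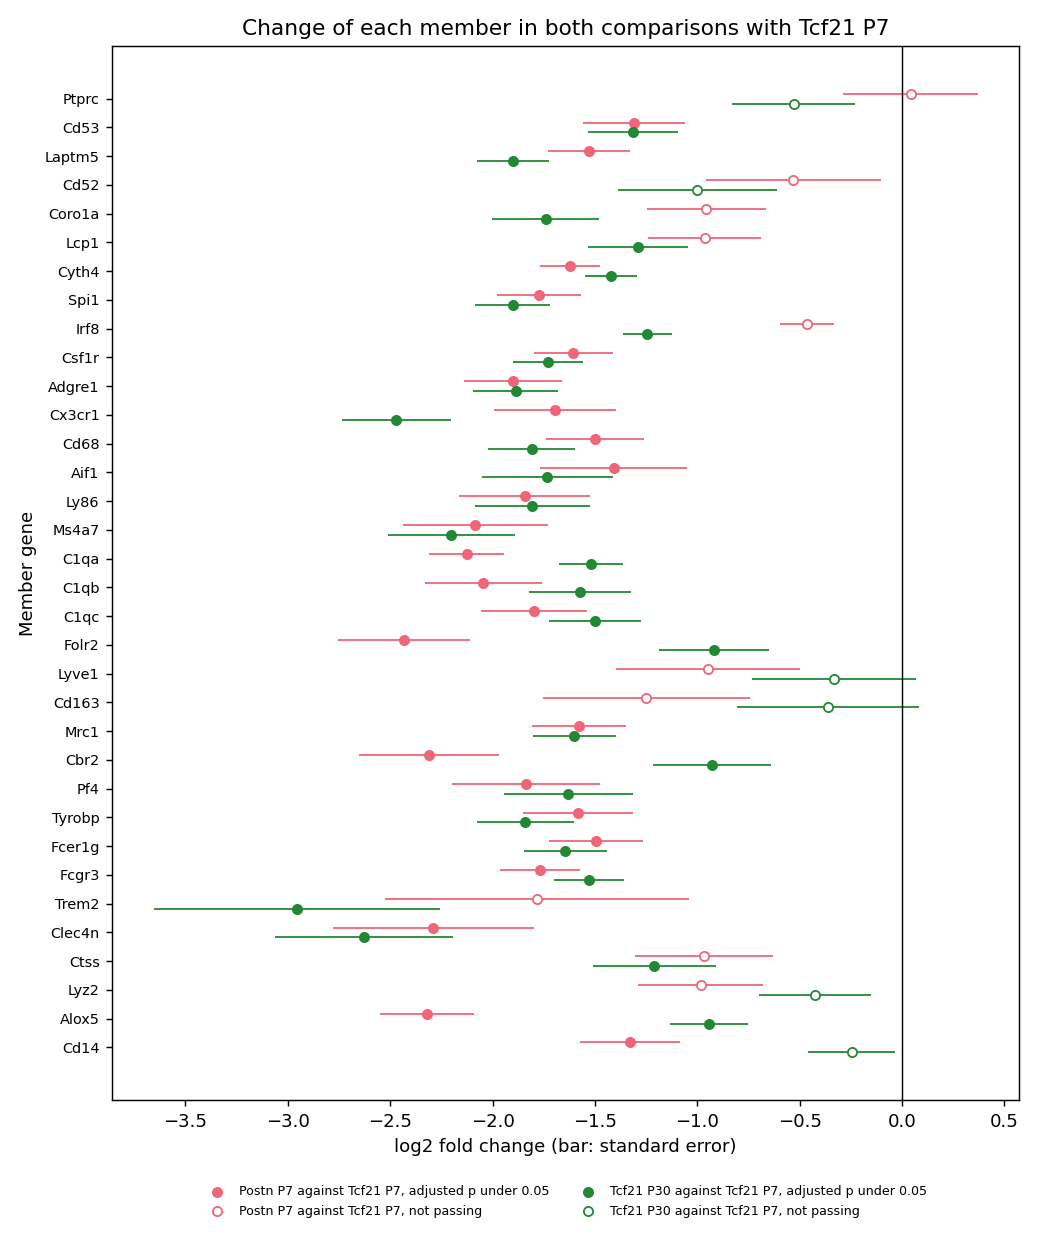
log2 fold change of each member (rows) in Postn P7 and in Tcf21 P30, each against the same Tcf21 P7 libraries. Bars are standard errors and filled points have an adjusted p under 0.05; the points run from -2.96 (Trem2, between ages) to 0.04 (Ptprc, between drivers).

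The Fc and ITAM group holds the antibody receptor Fcgr3, the signalling adaptors Tyrobp and Fcer1g, and the receptors Trem2 and Clec4n. Of its 5 members, 4 were lower in Postn P7 and 5 of 5 in Tcf21 P30. Fcgr3, a receptor for the constant part of IgG, was at 53.7 and 51.8 CPM for Tcf21 at 7 days, 21.2, 17.8 and 15.8 CPM for Tcf21 at 30 days, and 12.9 and 18.1 CPM for Postn. It changed by -1.77 ± 0.20 between drivers (edgeR adjusted p = 0.0039) and by -1.53 ± 0.17 between ages (edgeR adjusted p = 0.00053). The lower groups overlapped.

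Tyrobp, the adaptor DAP12 that passes on the signal of Trem2 and other receptors, was at 48.7 and 44.5 CPM in the Tcf21 P7 libraries, 16.0 and 15.1 CPM in those of Postn P7, and 18.1, 9.77 and 11.2 CPM in those of Tcf21 P30. Its changes were -1.58 ± 0.27 (edgeR adjusted p = 0.014) and -1.84 ± 0.24 (edgeR adjusted p = 0.0012). Trem2, a receptor for lipids and debris, was sparse, with 21 and 25 counts in Postn P7, 89 and 74 in Tcf21 P7, and 21, 6 and 2 in Tcf21 P30. It was called between ages at -2.96 ± 0.70 (edgeR adjusted p = 0.016), and between drivers its -1.78 ± 0.74 was not (edgeR adjusted p = 0.15).

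The transcription factors differed from each other. Spi1 (chr2:91082390-91115756) followed the surface and identity genes, at 22.3 and 23.3 CPM in both libraries of Tcf21 P7. Its values were 6.08 and 7.24 CPM with the Postn driver, and 7.13, 6.09 and 5.06 CPM at 30 days. It changed by -1.77 ± 0.21 between drivers (edgeR adjusted p = 0.0044) and by -1.90 ± 0.18 between ages (edgeR adjusted p = 0.00025). Irf8, which directs the growth of monocytes and dendritic cells and is also made by lymphocytes (chr8:120736358-120756694), was at 131 and 130 CPM for Tcf21 at 7 days, 47.2, 62.8 and 55.4 CPM for Tcf21 at 30 days, and 92.5 and 96.8 CPM for Postn. Its groups did not overlap, with Postn P7 in between. The change of -0.46 ± 0.13 between drivers missed the threshold (edgeR adjusted p = 0.056), and that of -1.24 ± 0.12 between ages passed it (edgeR adjusted p = 0.00025). Irf8 made up 12.3% and 10.4% of the summed member level in Postn P7, 5.85% and 5.83% in Tcf21 P7, and 4.26%, 8.31% and 7.12% in Tcf21 P30.

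Among the 7 members that mark leukocytes in general, Laptm5, Cd53 and Cyth4 were lower in both comparisons, and Lcp1 and Coro1a between ages only by the threshold; the difference between the comparisons was not tested. Laptm5, a lysosomal membrane protein, was at 114 and 109 CPM in the Tcf21 P7 libraries, 37.0 and 40.2 CPM in those of Postn P7, and 38.5, 25.6 and 25.5 CPM in those of Tcf21 P30. Its changes were -1.53 ± 0.20 (edgeR adjusted p = 0.0065) and -1.90 ± 0.18 (edgeR adjusted p = 0.00025).

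Lcp1, an actin-bundling protein of leukocytes, was at 124 and 127 CPM in both libraries of Tcf21 P7, 58.3 and 70.3 CPM with the Postn driver, and 71.2, 41.2 and 41.5 CPM at 30 days. The difference was -0.97 ± 0.27 between drivers (edgeR adjusted p = 0.067) and -1.29 ± 0.24 between ages (edgeR adjusted p = 0.0087). Coro1a, another actin-binding protein, was at 47.5 and 51.0 CPM for Tcf21 at 7 days, 19.7, 13.1 and 11.4 CPM for Tcf21 at 30 days, and 19.8 and 31.0 CPM for Postn. It differed by -0.96 ± 0.29 between drivers (edgeR adjusted p = 0.073) and by -1.74 ± 0.26 between ages (edgeR adjusted p = 0.0028). For both genes, both Tcf21 P7 libraries were the highest of the 7. Coro1a overlaps Bola2 on the other strand, which averaged 23.6 CPM.

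Ptprc, which encodes CD45 of all nucleated blood cells, departed from the pattern. It was at 12.6 and 14.8 CPM in the Tcf21 P7 libraries, 9.68 and 18.5 CPM in those of Postn P7, and 12.2, 8.37 and 7.86 CPM in those of Tcf21 P30. Neither its 0.04 ± 0.33 between drivers (edgeR adjusted p = 0.95) nor its -0.53 ± 0.30 between ages (edgeR adjusted p = 0.21) was called. The sign between drivers turned to -0.06 with limma-voom and to -0.51 without Postn P7 replicate 2, the library with the highest Ptprc. Cd52, a small surface glycoprotein of lymphocytes and myeloid cells, was not called either, at 8.41 and 7.73 CPM in both libraries of Tcf21 P7, 2.91 and 8.33 CPM with the Postn driver, and 3.85, 4.63 and 3.63 CPM at 30 days.

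The last group joins the enzyme genes Ctss, Lyz2 and Alox5 with the lipopolysaccharide co-receptor Cd14. Of its 4 members, 2 were lower in each comparison, Alox5 and Cd14 between drivers and Alox5 and Ctss between ages. Lyz2, lysozyme, was the member with the highest level per kilobase in Tcf21 P7. It was at 254 and 251 CPM for Tcf21 at 7 days, 239, 167 and 159 CPM for Tcf21 at 30 days, and 92.4 and 164 CPM for Postn, with -0.98 ± 0.31 between drivers (edgeR adjusted p = 0.088) and -0.43 ± 0.27 between ages (edgeR adjusted p = 0.28). Its share of the summed member level was 11.3% in each Tcf21 P7 library, 12.3% and 17.5% in Postn P7, and 21.6%, 22.1% and 20.4% in Tcf21 P30. The near-identical copy Lyz1 was listed at under 1 CPM in each library, and how reads shared by the copies were counted is not given in the sources used here.

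Ctss, the lysosomal protease cathepsin S, was at 50.3 and 47.4 CPM in the Tcf21 P7 libraries, 19.4 and 30.7 CPM in those of Postn P7, and 29.5, 18.5 and 15.4 CPM in those of Tcf21 P30. It differed by -0.97 ± 0.34 between drivers (edgeR adjusted p = 0.11) and by -1.21 ± 0.30 between ages (edgeR adjusted p = 0.024). Cd14 was at 29.3 and 29.6 CPM in both libraries of Tcf21 P7, 9.57 and 13.9 CPM with the Postn driver, and 30.2, 24.9 and 19.3 CPM at 30 days. It was lower between drivers by -1.33 ± 0.24 (edgeR adjusted p = 0.017), and its -0.25 ± 0.21 between ages was not called (edgeR adjusted p = 0.41). The Tcf21 libraries of both ages overlapped for Cd14, and both Postn P7 libraries were below them.

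Postn P7 and Tcf21 P30 differ in both driver and age, which cannot be told apart in this comparison. Here 6 members were called, 5 lower and 1 higher in Postn P7, and 28 were not, where 24.2% of all genes were called, 12.5% lower and 11.7% higher. The groups did not overlap for 6 members that were lower in Postn P7 (25.9% of all genes) and 3 that were higher (24.7%). The median was 0.07 over the members and -0.01 over all genes. Irf8 was higher by 0.78 ± 0.12 (edgeR adjusted p = 0.0024). Folr2 (-1.51 ± 0.30, edgeR adjusted p = 0.0084), Cbr2 (-1.38 ± 0.32, edgeR adjusted p = 0.018), Alox5 (-1.38 ± 0.21, edgeR adjusted p = 0.0026), Cd14 (-1.08 ± 0.23, edgeR adjusted p = 0.011) and C1qa (-0.61 ± 0.17, edgeR adjusted p = 0.032) were lower. The C1qa call passed in 9 of 18 alternatives. Tcf21 P30 replicate 1, the library with the most endothelial RNA, also had the highest summed member level of its group. Without it 13 members were called, 5 lower and 8 higher. The share of all genes called in that fit is not given here, so the rise is not read as a result about the members.

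A further 45 macrophage genes were tested. Of these, 22 were lower and none was higher in Postn P7 than in Tcf21 P7 (median -1.44). The largest change called was in Ccl24, an eosinophil-attracting chemokine (-2.69 ± 0.56, edgeR adjusted p = 0.024). Vsig4, a complement receptor (-2.35 ± 0.61, edgeR adjusted p = 0.046), and Wfdc17 (-2.05 ± 0.25, edgeR adjusted p = 0.0056) came next. In Postn P7, Ccl24 had 24 and 7 counts and Vsig4 27 and 5, and limma-voom did not call Vsig4. These 3 are named for size of change, not for staying called in other fits. With the Tcf21 P7 libraries summed only 3 of the 45 were called lower. Between ages 30 were lower and 2 higher (median -1.27), and 18 were lower with those libraries summed. Fcgr1, the high-affinity IgG receptor, was lower by -2.20 ± 0.34 (edgeR adjusted p = 0.0024), P2ry13, a nucleotide receptor, by -2.11 ± 0.48 (edgeR adjusted p = 0.013), and Ms4a6d by -2.01 ± 0.27 (edgeR adjusted p = 0.0012). Adap2 was among those higher (1.95 ± 0.14, edgeR adjusted p = 7.4e-05).

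Signalling genes shared by leukocytes formed a list of 25. Between drivers 5 were lower and none higher (median -0.98), of which Nckap1l, a regulator of actin, had the largest change (-1.60 ± 0.30, edgeR adjusted p = 0.018). With the Tcf21 P7 libraries summed edgeR called 0 of the 25, and limma-voom on the separate libraries called 9 lower. Between ages 14 were lower and none higher (median -1.33), led by the kinase Btk (-2.27), the actin regulator Was (-2.25) and the GTPase Rac2 (-1.97), and 10 were lower with the libraries summed.

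Markers of other blood cells gave few calls. Of 10 monocyte markers edgeR and limma-voom, each fitted on all 7 libraries, called none between drivers, and 1 had an unadjusted edgeR p under 0.05. Between ages Itgal was lower and Ace, which other heart cells also make, was higher. Of 15 T and NK cell markers 5 passed the filter, and of 8 B cell markers 6. Neither of these fits called any of them between drivers, where 1 and 2 respectively had an unadjusted edgeR p under 0.05. Between ages Cd4 was lower, and Ighm was the most expressed B cell marker. Neutrophil granule genes were called higher in Postn P7 than in Tcf21 P7 at low counts. Ngp had 127 and 162 counts in Postn P7, 2 and 2 in Tcf21 P7, and 5, 0 and 0 in Tcf21 P30 (edgeR adjusted p = 0.011 between drivers). Ltf had 78 and 245, then 2 and 0, then 2, 4 and 1 counts (edgeR adjusted p = 0.011), and Camp 31 and 44, then 0 and 0, then 3, 2 and 4 counts (edgeR adjusted p = 0.0075), which was also called higher in Tcf21 P30 than in Tcf21 P7. Among mast cell markers, Tpsab1 was lower in both comparisons with Tcf21 P7, with 0 and 0 counts in Postn P7, 79 and 34 in Tcf21 P7, and 2, 0 and 11 in Tcf21 P30. With the Tcf21 P7 libraries summed, Camp between drivers and Ace between ages were still called, and Ngp, Ltf, Tpsab1, Itgal, Cd4 and, between ages, Camp were not. With limma-voom, Ltf between drivers and Camp between ages were not called.

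Several genes of antigen presentation were higher at 30 days. Of 11 tested genes of MHC class II and dendritic cells, 6 were higher in Tcf21 P30 than in Tcf21 P7 and none was lower (median 1.29). Between drivers at 7 days, neither edgeR nor limma-voom on all 7 libraries called any (median -0.18, with 1 gene at an unadjusted edgeR p under 0.05). H2-Aa, a chain of MHC class II, was at 9.26 and 7.67 CPM for Tcf21 at 7 days, 65.4, 35.2 and 25.4 CPM for Tcf21 at 30 days, and 4.71 and 10.3 CPM for Postn. It rose by 2.31 ± 0.53 (edgeR adjusted p = 0.023). Cd74, the invariant chain that guides MHC class II through the cell, was at 30.6 and 32.5 CPM in the Tcf21 P7 libraries, 18.4 and 50.6 CPM in those of Postn P7, and 208, 141 and 103 CPM in those of Tcf21 P30, a rise of 2.25 ± 0.54 (edgeR adjusted p = 0.03). All Tcf21 P30 libraries were above all libraries at 7 days for both genes, and Tcf21 P30 replicate 1 was the highest. H2-Eb1, another chain of MHC class II, rose by 2.07 ± 0.30 (edgeR adjusted p = 0.0021) and alone of the list was called with the Tcf21 P7 libraries summed. Without both endothelial-rich libraries 5 were called higher. Clec9a, a receptor of the dendritic cells that take up dead cells, was also called at low counts (edgeR adjusted p = 0.03), with 1 and 0 in Tcf21 P7, 44, 5 and 11 in Tcf21 P30 and 19 and 13 in Postn P7.

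Signals to macrophages, made by fibroblasts among other cells, included several that were higher at 30 days. Of 14 tested ligands, 8 were higher in Tcf21 P30 than in Tcf21 P7 and none was lower (median 1.09). Fitted on all 7 libraries, neither edgeR nor limma-voom called any between drivers (median 0.12, with 1 gene at an unadjusted edgeR p under 0.05). Csf1 was at 132 and 142 CPM in both libraries of Tcf21 P7, 125 and 146 CPM with the Postn driver, and 252, 345 and 318 CPM at 30 days, a rise of 1.15 ± 0.15 (edgeR adjusted p = 0.00096). Its receptor gene Csf1r was lower over the same comparison. The largest rises were in complement C3 (6.16 ± 0.69, edgeR adjusted p = 0.0026), the Cx3cr1 ligand Cx3cl1 (3.13 ± 0.38, edgeR adjusted p = 0.0011) and the monocyte attractant Ccl7 (1.99 ± 0.17, edgeR adjusted p = 0.00016). C3 was at 17.7 and 9.002 CPM for Tcf21 at 7 days, 830, 1048 and 994 CPM for Tcf21 at 30 days, and 25.6 and 7.69 CPM for Postn. With the Tcf21 P7 libraries summed 7 of these ligands were called higher.

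**Figure D4:**
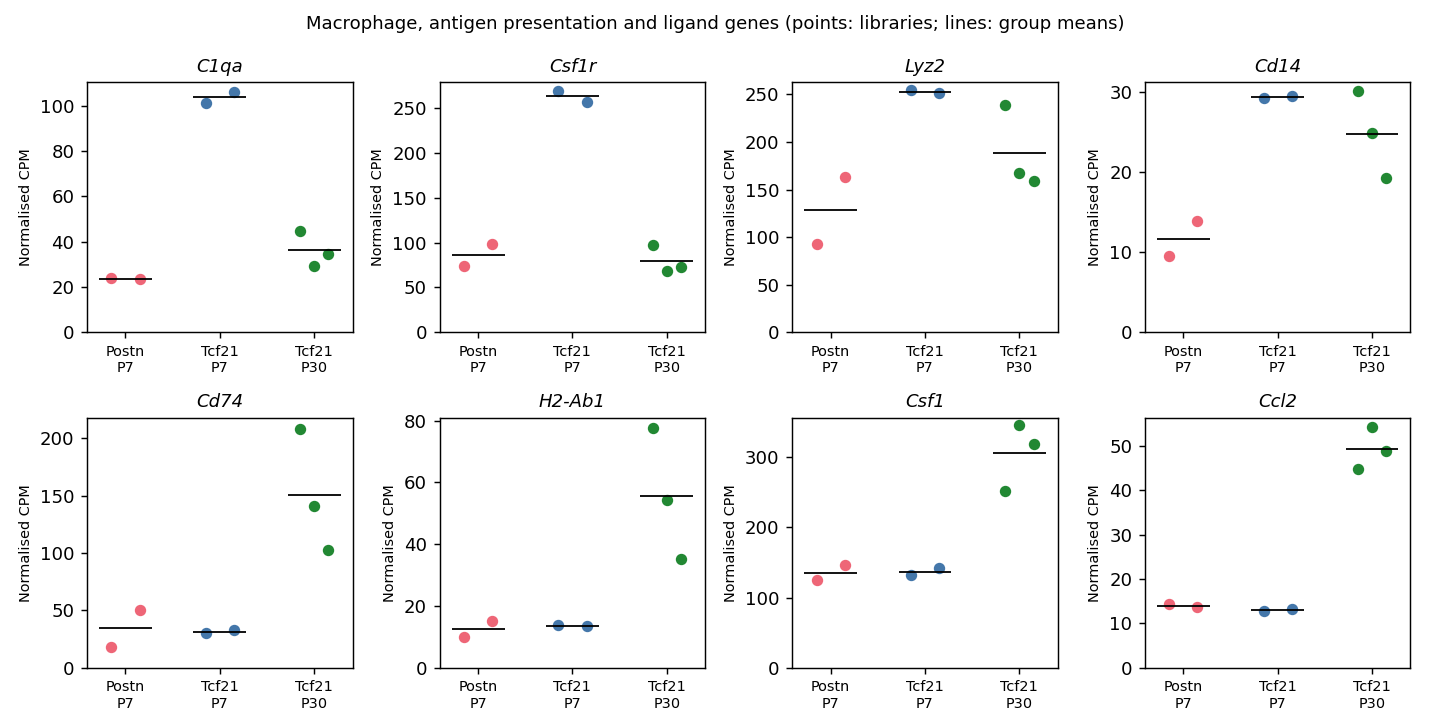
Normalised CPM (each axis from 0) of 4 members (C1qa, Csf1r, Lyz2, Cd14), 2 antigen presentation genes (Cd74, H2-Ab1) and 2 ligands (Csf1, Ccl2) in the 3 groups, with points for libraries and lines for group means. C1qa and Csf1r are highest in Tcf21 P7, at 101 and 106 CPM and 268 and 257 CPM, while Cd74 and Csf1 are highest in Tcf21 P30, at 103 to 208 CPM and 252 to 345 CPM.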

How the data were processed

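RNA of sorted GFP-positive cells was sequenced on an Illumina HiSeq instrument, per the labels. The deposited table holds raw counts per gene symbol, with 1 column per library. STAR and GRCm38 are named in the submitters' processing notes. Versions of these, how reads were assigned to genes, the gene models and whether strand was used are not given in the sources used here.

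Raw counts were tested with edgeR 4.0.16 in R 4.3.3. Genes were filtered with filterByExpr, scaled by TMM, and fitted with robust quasi-likelihood dispersions and 1 mean per group over all 7 libraries. P-values were adjusted by Benjamini-Hochberg over the 17636 genes tested, and SE is the size of the log2 fold change over the root of F. Replicates of each group were further apart than counting error gives and were counted as separate samples, although preparations of the same RNA could also differ by that much. The variance of counts around the sampling expectation (chi-square per degree of freedom over all genes) was 3.43 between the Tcf21 P7 libraries, 18.4 in Postn P7 and 9.90 to 38.1 in Tcf21 P30, and over the members 1.93, 24.4 and 5.38 to 46.3. A fit with the Tcf21 P7 libraries summed was among the alternatives, along with limma-voom (limma 3.58.1), DESeq2 1.42.0, other scalings and filters, and fits without single libraries.

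Coordinates came from GENCODE M21, which had 1 record for each of the 34 members, and promoters from RefSeq. Members and gene lists were chosen with earlier results of these data known. Described with values were the 2 most expressed members of each role, those whose call differed between the comparisons with Tcf21 P7, the genes Ptprc, Csf1r, Adgre1, C1qa, C1qb, C1qc and Lyve1, and the 4 considered for promoters; Cd163 and Cd52 were added after their values were seen, as members that were not called. From other lists up to 3 called genes with the largest change were named, and H2-Eb1, H2-Ab1, Adap2, Ccl2 and Csf1 were added after their values were seen. The values of 1 gene of these lists are not reported here.

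The test was tried on simulated counts of 17636 genes with the design of these libraries. Between drivers it called 38 of 89 genes changed 2-fold, 83 of 107 changed 4-fold and 12 of 16946 unchanged genes. Between ages it called 50 of 93, 81 of 100 and 29 of 16954.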

Additional observations from a re-analysis of the deposited data

How the results depend on the processing

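Of 24 members called between drivers at 7 days, 7 were called under all 18 alternatives (Adgre1, Alox5, C1qa, Csf1r, Cyth4, Fcgr3 and Spi1). The number called was 9 with the Tcf21 P7 libraries summed, and leaving out 1 library at a time gave 8 to 30. Between ages 22 of the 28 were called under all 18. Between Postn P7 and Tcf21 P30, the 6 called members became 13 with no filter on low counts and 21 without both endothelial-rich libraries (Tcf21 P30 replicate 1 and Postn P7 replicate 1), and 5 to 13 with 1 library left out. The summed member level of that comparison moved from -0.05 to 0.28 without both endothelial-rich libraries. Of 612 values per comparison, the sign changed in 5 between drivers, in 0 between ages and in 32 between Postn P7 and Tcf21 P30, and none of these was called. Between drivers the changes of sign were in Ptprc, -0.058 with limma-voom and -0.51 to 0.43 with 1 library left out, and in Cd52, 0.047 without both endothelial-rich libraries and -1.48 to 0.039 with 1 left out.

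With the replicate number as a block, 22, 26 and 5 members were called in the 3 comparisons, and the share of all genes is again not given here. The labels do not tie libraries by number, and the correlations of deviations between same-numbered libraries ran from 0.04 to 0.31, so the numbers were not taken as pairs. Scaling by library size alone moved the median of all genes between drivers by 0.116. With 2 or 3 libraries per group, a change of 2-fold was often missed in simulated data, and a member that was not called is not shown to be alike between groups.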
